A study of Homo sapiens with 6 samples.

Results

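To describe how the genes of the extracellular matrix differed after disruption of FOXC1, 53 genes were examined among the 57820 genes counted in J82, a long-established line of human bladder carcinoma cells. The members were taken by symbol from a list of matrix glycoproteins, proteoglycans, elastic fibre components and crosslinking enzymes, and collagens and laminins were left out. All 53 were found in the count table. One of them, CYP1B1, encodes a cytochrome P450 enzyme and no matrix protein, and the counts over all members include it unless stated. The cells of both groups were J82 cells grown in DMEM with fetal bovine serum. The control group held 3 libraries (control replicates 1 to 3), from cells that carried a vector per the study's methods. The FOXC1 KO group held 3 libraries (KO replicates 1 to 3), from cells given a LentiCRISPRv2 vector with a guide against FOXC1, a forkhead transcription factor gene, and selected with puromycin. The study's methods speak of knockout clones. Neither they nor the labels state whether the KO libraries came from 1 clone or from a mixed population. Whether replicates were separate cultures is not stated either. The p-values therefore measure the spread between these libraries, which may be technical. Differences due to the guide or to the choice of clone cannot be told apart from loss of FOXC1 in this design.

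Matricellular proteins such as tenascin, thrombospondins, osteonectin and periostin are secreted into the matrix, where they act on cell adhesion and signalling more than as structural fibres. Proteoglycans carry glycosaminoglycan chains that bind water and growth factors, and the syndecans and glypicans hold such chains at the cell surface. Microfibrils of fibrillin carry elastin and the fibulins, and the lysyl oxidases crosslink elastin and collagen. In tumours of the bladder much of this matrix is made by fibroblasts, so a pure cell line shows the part that carcinoma cells transcribe themselves.

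The libraries held 18408134 to 25350908 counts. The transcript of the targeted gene did not check the labels, and RNA counts do not measure its protein. The study's methods state that the knockout was checked by Western blot. FOXC1 was at 18.4, 16.9 and 19.3 CPM (counts scaled to library size with TMM) in the control libraries and at 24.1, 22.2 and 21.1 CPM in those labelled KO, a log2 fold change of 0.30 with an SE of 0.091 (edgeR adjusted p 0.0127). The directions below are therefore between libraries labelled FOXC1 KO and control. Of 13 urothelial and epithelial markers 7 passed the filter on low counts, and 6 of these were lower in the labelled KO libraries. Their summed level was 3178 to 4000 CPM in control and 2488 to 2765 CPM in labelled KO libraries. UPK3A had 0 counts in all libraries, and CDH1, the epithelial cadherin gene, had 0 to 3. Of 5 mesenchymal markers 2 were higher and 0 lower, with 3 log2 fold changes above zero and 2 below. Their summed levels were 631.9 to 667.0 and 696.3 to 742.8 CPM, of which VIM was 315.3 ± 21.0 and 388.5 ± 10.8 CPM (mean ± SD, not called). The fibroblast markers summed to 33.8 to 43.3 and 42.0 to 50.1 CPM, most of it PDGFRB (32.8 ± 4.66 and 39.2 ± 3.69 CPM, not called), while PDGFRA had 0 to 2 counts. S100A4, which is also in the mesenchymal list, was called higher (log2 fold change 0.47). Blood cell markers summed to 3.85 to 4.32 and 5.51 to 6.63 CPM, most of it CD14, which was called higher (log2 fold change 0.62, edgeR adjusted p 0.00129). PTPRC had 10 counts over the control and 23 over the labelled KO libraries, and CD3E had 0 in all. Endothelial markers summed to 0.707 to 0.983 and 1.67 to 1.96 CPM, where CDH5 had 0, 0 and 1 counts in control and 18, 18 and 26 in labelled KO libraries. The part of these shifts in the matrix results was not tested. In bulk RNA, fewer cells of a type and less RNA per cell cannot be told apart.

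Of the 53 genes 39 passed the filter on low counts. Of these 14 were higher and 7 lower in the labelled KO libraries in edgeR's quasi-likelihood test, where a call needed both a 1.3-fold change and an adjusted p under 0.05. The 21 called genes made up 53.8% of the 39, beside 16.0% of all 15647 genes tested, and the 39 are not a random draw, since a gene can pass the filter through the group in which it is high. The members were also chosen with earlier results of these data known, so these shares are not an independent comparison. Without CYP1B1 these were 13 higher and 7 lower of 38 genes. Among all genes tested 7.57% were called higher and 8.39% lower. The median log2 fold change of the 39 was 0.27, beside -0.00084 over all genes tested, with 27 above zero and 12 below. It was 0.17 without KO replicate 1 and 0.14 with a mean of at least 50 counts. For 24 of the 39, all labelled KO values lay on one side of control (17 above and 7 below), beside 41.3% of all genes tested. At more than 2-fold 4 were higher and 2 lower, beside 4.07% of all genes tested in either direction. The calls are given here by role. Matricellular and adhesive glycoproteins had 6 higher and 2 lower of 10 tested. Elastic fibre components had 3 higher and 1 lower of 7 tested, and crosslinking enzymes 2 higher and 0 lower of 5 tested. Cell surface heparan sulfate proteoglycans had 1 higher and 3 lower of 7 tested. Secreted proteoglycans had 1 higher (SRGN) and 1 lower (DCN) of 4 tested, while 6 more did not pass the filter. CYP1B1 was the remaining higher gene. No basement membrane gene (of 3) and no hyaluronan synthase (of 2) was called. The summed level of all 53 was 3062 ± 152 CPM in control and 3917 ± 124 CPM in labelled KO libraries (mean ± SD, n = 3 each), and these groups did not overlap. By role, the sum was higher without overlap for matricellular glycoproteins (757 and 1244 CPM), secreted proteoglycans (645 and 868) and crosslinking enzymes (523 and 629). It overlapped for cell surface proteoglycans (730 and 774), elastic fibre components (299 and 298), basement membrane genes (101 and 94.5) and hyaluronan synthases (6.47 and 6.18). A sum follows the most abundant genes of its role and does not show that the others moved alike. The largest rises in mean CPM were those of TNC (95.4 to 357) and THBS1 (474 to 667) among matricellular genes. Among secreted proteoglycans it was SRGN (50.6 to 206), and among crosslinking enzymes TGM2 (243 to 305, not called).

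**Figure D1:**
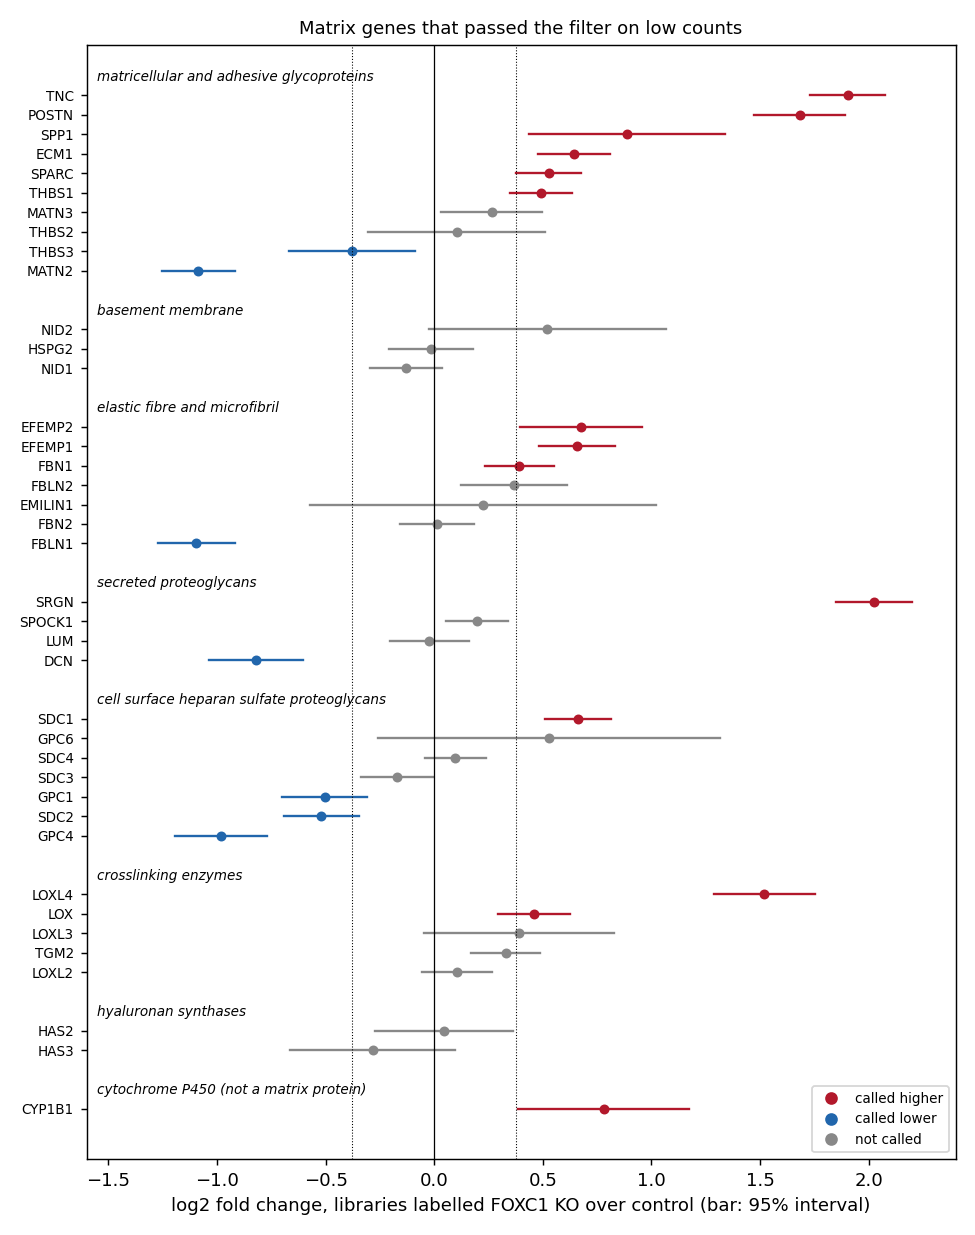
Log2 fold change of each of the 39 genes that passed the filter on low counts, libraries labelled FOXC1 KO (n = 3) over control (n = 3), grouped by role. Points are edgeR estimates, bars 95% intervals and dotted lines the 1.3-fold threshold. SRGN, TNC, POSTN and LOXL4 lie farthest to the right, at 1.52 to 2.03, and FBLN1 and MATN2 farthest to the left, at -1.10 and -1.09.

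Tenascin C and periostin showed the largest differences among the matricellular genes. TNC (ENSG00000041982, GRCh37 chromosome 9, 117781854 to 117880486, minus strand) encodes an adhesion-modulating glycoprotein of embryonic and tumour matrix. It was at 95.2, 93.9 and 97.0 CPM in the control libraries and at 409.0, 358.5 and 303.4 CPM in the labelled KO libraries. The control libraries lay close together, while the labelled KO libraries spread more widely, and all lay above control. The log2 fold change was 1.90 with an SE of 0.084 (edgeR adjusted p 1.1e-16). POSTN (chromosome 13, 38136720 to 38172981, minus strand) encodes periostin, an integrin ligand. Its level was 6.95, 6.88 and 7.15 CPM in control and 20.6, 22.2 and 24.5 CPM in labelled KO libraries, again without overlap. The log2 fold change was 1.68 with an SE of 0.10 (edgeR adjusted p 1.66e-13).

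The other matricellular genes moved less. THBS1, which encodes thrombospondin 1, an activator of latent TGF-beta, had the highest level per length of this group in control, at 51.8 CPM per kb of exon. It rose from 474 ± 2.49 to 667 ± 46.4 CPM (mean ± SD of 3 libraries), which gave a log2 fold change of 0.49 with an SE of 0.070 (edgeR adjusted p 3.09e-06). SPARC, the gene of the collagen-binding osteonectin, rose from 65.0 ± 4.01 to 93.8 ± 2.14 CPM, and ECM1, a secreted matrix glycoprotein, from 36.8 ± 3.53 to 57.4 ± 2.74 CPM (log2 fold changes 0.53 and 0.64). SPP1, the gene of osteopontin, was at 0.936 to 1.72 CPM in control and 2.01 to 2.93 CPM in labelled KO libraries, with a log2 fold change of 0.89 with an SE of 0.22 (edgeR adjusted p 0.00279). MATN2 and THBS3 were the members that fell. MATN2, on chromosome 8, encodes a filament-forming matrilin and was at 62.4, 59.5 and 63.8 CPM in control and 32.4, 27.9 and 27.5 CPM in labelled KO libraries. Every labelled KO library was thus far under every control library, with a log2 fold change of -1.09 with an SE of 0.082 (edgeR adjusted p 1.85e-11). THBS3 (4.80 ± 0.477 to 3.71 ± 0.271 CPM) lay at the thresholds, with a log2 fold change of -0.38 with an SE of 0.14 (edgeR adjusted p 0.0425). Its adjusted p was 0.183 with DESeq2, and the call was lost without control replicate 3 (-0.29) and without each KO replicate (-0.42, -0.40 and -0.33). Its exons overlap those of MTX1 on the other strand, which had a log2 fold change of -0.065 and was not called. THBS2 (log2 fold change 0.10, 95% interval -0.30 to 0.51) and MATN3 (0.27, 0.034 to 0.50) were not called.

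**Figure D2:**
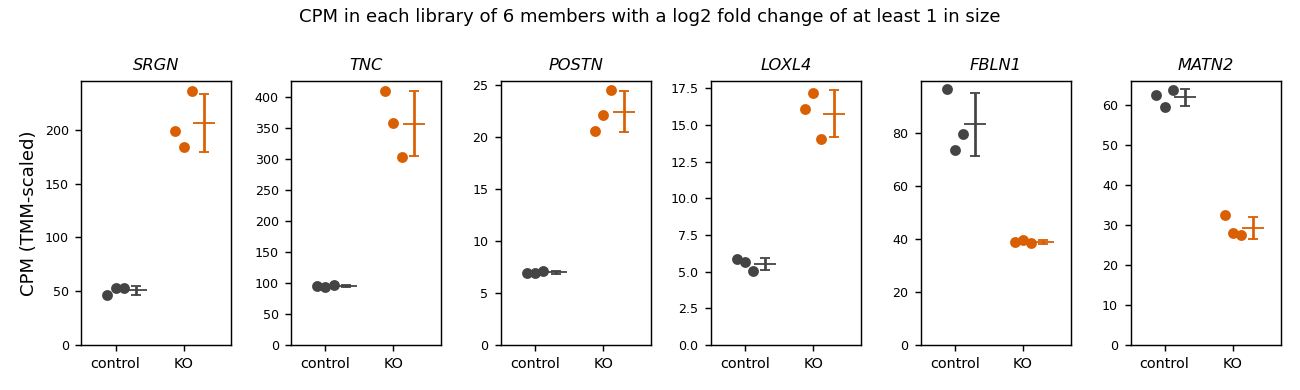
CPM of the 6 genes with a log2 fold change of at least 1 in size, in each control and each labelled KO library (points), with the mean and SD of the 3 libraries beside them and an axis from 0 for each gene. No group overlaps with the other for any of the 6: SRGN, TNC, POSTN and LOXL4 are higher and FBLN1 and MATN2 lower in the labelled KO libraries. The 6 were picked for being called with a change of this size in these same libraries, so the lack of overlap is no separate result. The groups do not overlap for 41.3% of all genes tested.

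Letters at the start sites of these genes are shown because the study asks which genes depend on a forkhead factor. Promoters of 250 bases before to 50 bases after the start came from RefSeq on GRCh38.p14, and 38 of the 53 genes had an entry. The genes without one were CYP1B1, DCN, EFEMP1, ELN, EMILIN1, GPC3, HAS2, LOXL2, LUM, MATN2, MFAP5, SDC2, SPOCK1, SRGN and TGM2. Both strands were searched for the forkhead letters GTAAACA (also in the form GTAAATA, in the form ATAAACA and in the form ATAAATA), the AP-1 letters TGANTCA, the TEAD letters GGAATG and the TATA box letters TATAAA. None of these overlaps another in the sequences shown. The promoters are those of TNC (chr9:115118108-115118407 on the minus strand), POSTN (chr13:37598719-37599018 on the minus strand), LOXL4 (chr10:98268145-98268444 on the minus strand) and FBLN1 (chr22:45502633-45502932 on the plus strand), printed along the gene's strand, with matches in capitals.
TNC: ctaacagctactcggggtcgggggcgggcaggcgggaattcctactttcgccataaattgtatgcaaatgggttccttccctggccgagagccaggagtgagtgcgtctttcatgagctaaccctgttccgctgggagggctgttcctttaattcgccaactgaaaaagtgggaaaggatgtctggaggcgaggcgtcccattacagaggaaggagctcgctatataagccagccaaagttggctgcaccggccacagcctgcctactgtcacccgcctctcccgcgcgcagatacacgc
POSTN: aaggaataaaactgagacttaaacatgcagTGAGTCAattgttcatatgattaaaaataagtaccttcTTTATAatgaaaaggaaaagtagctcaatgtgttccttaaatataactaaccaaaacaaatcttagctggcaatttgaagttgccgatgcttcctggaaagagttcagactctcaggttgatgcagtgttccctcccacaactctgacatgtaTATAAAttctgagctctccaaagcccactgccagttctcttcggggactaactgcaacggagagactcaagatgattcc
LOXL4: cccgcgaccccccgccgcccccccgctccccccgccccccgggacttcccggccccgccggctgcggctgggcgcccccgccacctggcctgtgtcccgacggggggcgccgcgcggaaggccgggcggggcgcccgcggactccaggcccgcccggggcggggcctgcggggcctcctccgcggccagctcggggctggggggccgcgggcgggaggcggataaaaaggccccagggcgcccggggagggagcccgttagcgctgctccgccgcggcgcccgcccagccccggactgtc
FBLN1: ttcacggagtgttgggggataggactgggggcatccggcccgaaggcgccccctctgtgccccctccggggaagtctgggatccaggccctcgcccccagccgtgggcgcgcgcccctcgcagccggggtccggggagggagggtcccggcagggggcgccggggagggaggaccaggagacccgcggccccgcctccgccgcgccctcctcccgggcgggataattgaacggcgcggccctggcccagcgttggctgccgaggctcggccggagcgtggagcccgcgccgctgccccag
In POSTN an AP-1 match began 220 bases before the start and TATA box matches 182 (on the other strand) and 29 bases before it. The TNC, LOXL4 and FBLN1 windows held none of the letters searched. Forkhead letters were in 0 of the 11 promoters of higher genes, 0 of 4 of lower genes and 2 of 12 of genes not called, and in 13.9% of 27305 promoters in all. AP-1 letters were in 2 of 11 higher promoters (POSTN and ECM1), 0 of 4 lower promoters and 0 of 12 of genes not called, beside 7.76% of all promoters. TEAD letters were in 3 of 11 higher promoters (SPARC, THBS1 and FBN1), 0 of 4 lower promoters and 3 of 12 of genes not called, beside 14.0% of all promoters. A match is a string of letters, not a bound site, and windows of this size leave out distal enhancers.

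Among the elastic fibre genes the fibulins moved in opposite directions. FBLN1 (chromosome 22, 45898118 to 45997015, plus strand) encodes fibulin 1, a glycoprotein of elastic fibres and basement membranes. It was at 96.7, 73.5 and 79.5 CPM in control and 38.8, 39.7 and 38.3 CPM in labelled KO libraries. The labelled KO libraries were nearly alike, and all lay below control, with a log2 fold change of -1.10 with an SE of 0.087 (edgeR adjusted p 5.15e-11). EFEMP1, the gene of fibulin 3, rose from 23.7 ± 1.58 to 37.4 ± 2.64 CPM (mean ± SD of 3 libraries), which gave a log2 fold change of 0.66 (edgeR adjusted p 7.17e-07, SE 0.086). EFEMP2, the gene of fibulin 4, which recruits lysyl oxidase to elastin, rose from 3.91 ± 0.498 to 6.21 ± 0.595 CPM (log2 fold change 0.68, adjusted p 0.000352). Its exons overlap those of MUS81 on the other strand, a gene with a log2 fold change of 0.17 that was not called. FBLN2 was not called (0.37, 95% interval 0.13 to 0.61), and its value depended on the libraries used. It passed the thresholds without control replicate 1 (0.51), KO replicate 1 (0.40) or KO replicate 3 (0.44) and after thinning (0.41), and was at 0.25 without control replicate 2 (edgeR adjusted p 0.137) and 0.26 without KO replicate 2 (edgeR adjusted p 0.159).

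The make-up of fibulin transcripts was then compared. On the scale of CPM per kb of exon, FBLN1 supplied 56.1 ± 1.19% (SD, n = 3) of the family in control and 28.5 ± 0.791% in labelled KO libraries. EFEMP1 supplied 29.6 ± 1.83% and 50.3 ± 3.11%. The groups did not overlap for either share (exact permutation p 0.1, two-sided, the smallest that 3 against 3 can give). Shares of a family are parts of a whole, so a fall in FBLN1 raises the share of the others. Both genes had also been called in opposite directions in these libraries, so the shares are no separate results. The summed level of the family was 20.3 ± 2.50 CPM per kb in control and 18.7 ± 0.337 in labelled KO libraries. The size of each share depends on the exon lengths used, 7285 bases for FBLN1 and 3962 for EFEMP1. In CPM without length, FBLN1 and EFEMP1 were close in labelled KO libraries (means 38.95 and 37.38).

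The fibrillins, which form the microfibril core, were well expressed. FBN2 was at 104 ± 2.53 and 106 ± 15.6 CPM (log2 fold change 0.013, 95% interval -0.16 to 0.18). FBN1 rose from 72.5 ± 1.89 to 95.2 ± 9.85 CPM, a log2 fold change of 0.39 with an SE of 0.078 (edgeR adjusted p 0.000270). It fell just short of 1.3-fold without control replicate 1 (0.38), control replicate 2 (0.37), KO replicate 1 (0.32) or KO replicate 2 (0.38) and with a mean of at least 50 counts (0.38). FBN1 supplied 40.0 ± 0.126% of fibrillin CPM per kb in control and 46.6 ± 1.20% in labelled KO libraries, without overlap. EMILIN1 was near the detection limit, at 0.267 to 0.819 CPM in control and 0.382 to 0.706 CPM in labelled KO libraries, and was not called. Elastin itself (ELN) had 1 count over the control and 2 over the labelled KO libraries. FBLN5 had 8 and 2, MFAP2 11 and 10, and MFAP5 1 and 0. The cells had counts for fibrillins and fibulins, while elastin was at the limit of detection.

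SRGN had the highest log2 fold change of the 39 genes tested. SRGN (chromosome 10, 70847859 to 70864561, plus strand) encodes serglycin, the proteoglycan of secretory granules. It was at 46.3, 52.8 and 52.7 CPM in control and 198.8, 183.7 and 235.9 CPM in labelled KO libraries. All labelled KO libraries lay above all control libraries, with a log2 fold change of 2.03 with an SE of 0.086 (edgeR adjusted p 4.46e-17). Per length it passed SPOCK1, the highest secreted proteoglycan in control. SRGN was at 41.6 CPM per kb of exon in control and 169 in labelled KO libraries, and SPOCK1, the gene of testican 1, at 84.7 and 97.1. SPOCK1 had an adjusted p of 0.0345 in edgeR but a log2 fold change of 0.20, under the 1.3-fold threshold.

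Decorin and lumican are small leucine-rich proteoglycans that bind collagen fibrils, and their genes lie side by side on chromosome 12. DCN (91534261 to 91576994, minus strand) was at 17.4, 18.7 and 19.3 CPM in control and 8.69, 10.55 and 11.9 CPM in labelled KO libraries, a log2 fold change of -0.82 with an SE of 0.11 (edgeR adjusted p 6.22e-07). LUM (91496406 to 91505271, minus strand) was at 50.5, 50.5 and 49.2 CPM in control and 42.9, 47.0 and 57.9 CPM in labelled KO libraries, and the groups overlapped (log2 fold change -0.022, 95% interval -0.20 to 0.16). DCN supplied 7.06 ± 0.440% of the CPM per kb of the 6 small leucine-rich members in control and 4.16 ± 0.222% in labelled KO libraries, without overlap (exact permutation p 0.1, two-sided). EPYC, another gene of this class on the same chromosome (91357459 to 91398803), rose from 1.51 ± 0.369 to 3.22 ± 0.707 CPM (log2 fold change 1.09, SE 0.20, adjusted p 0.000118 in edgeR). The remaining members were at or near 0. ACAN and FMOD had 0 counts in all 6 libraries, which allows up to 3 counts, or 0.163 CPM in the smallest library. VCAN, the gene of versican, had 3 counts over the control and 10 over the labelled KO libraries, BGN 1 and 9, ASPN 2 and 2, and PRELP 8 and 7.

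At the cell surface the syndecans and glypicans, which present growth factors on heparan sulfate chains, differed in direction. SDC4 had the highest level per length of this group, at 149 CPM per kb in control, and was not called (389 ± 20.4 and 416 ± 9.003 CPM, log2 fold change 0.097, 95% interval -0.043 to 0.24). SDC1, the syndecan of epithelia, was at 129.0, 111.7 and 115.8 CPM in control and 193.5, 196.4 and 174.4 CPM in labelled KO libraries (log2 fold change 0.66, SE 0.074, adjusted p 4.21e-08 in edgeR). SDC2, the syndecan of mesenchymal cells, went the other way, from 35.6 ± 2.38 to 24.8 ± 0.926 CPM (-0.52, SE 0.084, adjusted p 1.94e-05). SDC3 was not called (-0.17, 95% interval -0.34 to -0.0038). SDC1 supplied 16.2 ± 0.244% of syndecan CPM per kb in control and 22.7 ± 1.25% in labelled KO libraries. The share of SDC2 was 4.29 ± 0.0339% and 2.66 ± 0.138%, and neither share overlapped between groups. SDC1 was not in the list of epithelial markers, of which 6 of the 7 tested were lower. Any link between SDC1 and these markers was not tested.

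Both well expressed glypicans, which are anchored to the membrane by a lipid, fell. GPC4 (chromosome X, 132434131 to 132549517, minus strand) was at 17.1, 15.3 and 16.1 CPM in control and 8.37, 8.56 and 7.69 CPM in labelled KO libraries, a log2 fold change of -0.98 with an SE of 0.10 (edgeR adjusted p 1.27e-08). GPC1 was at 96.6, 70.2 and 72.2 CPM in control and 54.2, 61.5 and 52.5 CPM in labelled KO libraries (-0.50, SE 0.095, adjusted p 0.000150 in edgeR). Control replicate 1 was the highest library for GPC1, and without it the log2 fold change was -0.35, short of 1.3-fold. The summed glypican level was 15.5 ± 2.42 CPM per kb in control and 10.4 ± 0.792 in labelled KO libraries. GPC6 was at 0.205 to 0.472 and 0.436 to 0.637 CPM and was not called. GPC3, the neighbour of GPC4 on chromosome X, had 0, 2 and 0 counts in control and 0, 5 and 7 in labelled KO libraries.

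**Figure D3:**
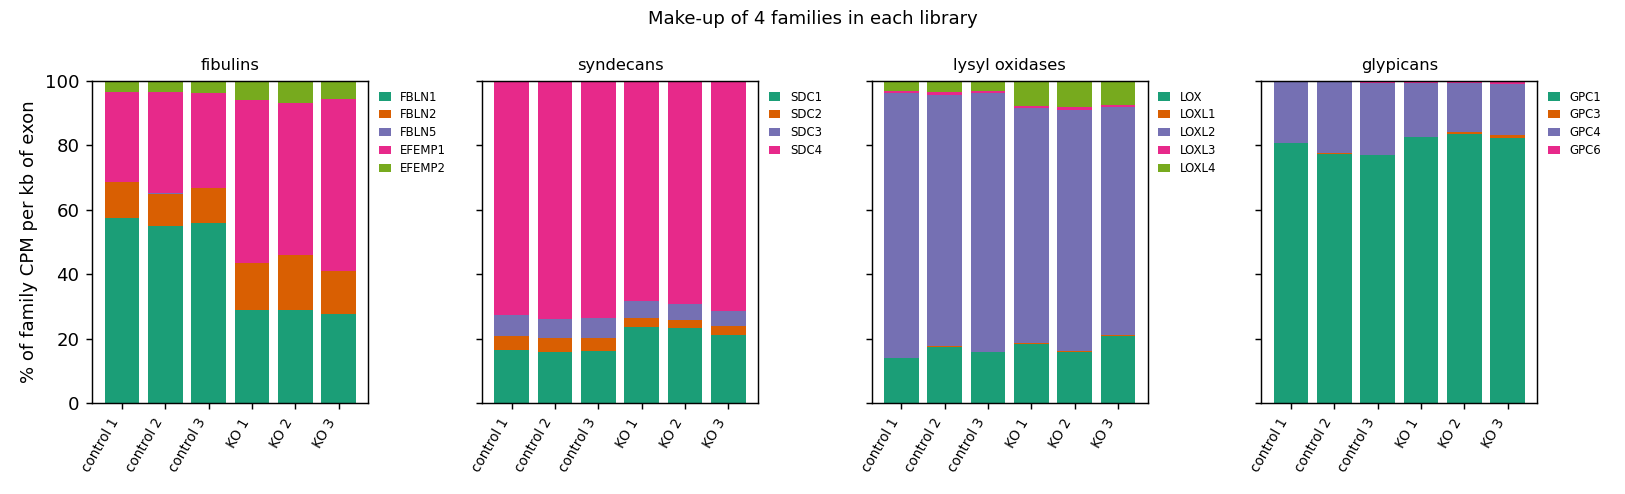
Share of each gene in the summed CPM per kb of exon of its family, in percent, for fibulins, syndecans, lysyl oxidases and glypicans in each of the 6 libraries. The mean FBLN1 share is 56.1% in control and 28.5% in labelled KO libraries, the SDC1 share 16.2% and 22.7%, and the LOXL4 share 3.20% and 7.71%.

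The crosslinking enzymes were higher or not called. LOXL4 (chromosome 10, 100007447 to 100027951, minus strand) encodes a lysyl oxidase, a copper enzyme that oxidizes lysines of collagen and elastin. It was at 5.84, 5.65 and 5.03 CPM in control and 16.1, 17.2 and 14.0 CPM in labelled KO libraries, a log2 fold change of 1.52 with an SE of 0.11 (edgeR adjusted p 1.43e-11). LOX rose from 42.3 ± 1.31 to 58.3 ± 5.40 CPM (0.46, SE 0.081, adjusted p 6.00e-05). Its exons overlap those of SRFBP1 on the other strand, which had a log2 fold change of 0.23 and was not called. LOXL2 supplied most of the family's CPM per kb, at 80.3 ± 2.11% in control and 72.9 ± 2.02% in labelled KO libraries, and was itself not called (231 ± 26.0 and 248 ± 20.2 CPM, log2 fold change 0.10, 95% interval -0.057 to 0.27). The LOXL4 share was 3.20 ± 0.292% and 7.71 ± 0.404%, without overlap. The exons of LOXL2 overlap those of ENTPD4 on the same strand, which had 5620 counts over all libraries beside 33289 for LOXL2.

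LOXL1 did not pass the filter on low counts. It had 0, 1 and 2 counts in control and 8, 12 and 8 in labelled KO libraries. The ratio of the totals, scaled to library size, was 9.98 (exact 95% interval 3.08 to 51.3, which covers counting error only). With no filter on low counts its adjusted p was 0.000160 in edgeR, and with DESeq2 0.0135. LOXL1-AS1, on the other strand, shares exon positions with it, had 139 counts over all libraries beside 31 for LOXL1, and was itself called higher (log2 fold change 1.90, edgeR adjusted p 4.23e-06). As the strand setting of the counting is not known, reads of these genes cannot be told apart. Of the other members that did not pass the filter, TNXB, BGN and GPC3 also had ratios whose exact 95% interval excluded equal levels. The ratios were 0.50 (0.25 to 0.95), 9.63 (1.33 to 422) and 6.42 (1.43 to 59.0), in that order. With no filter on low counts edgeR called none of these (adjusted p 0.204, 0.106 and 0.0771). LOXL3 was not called (0.39, 95% interval -0.046 to 0.83). TGM2, the gene of tissue transglutaminase, was at 243 ± 28.0 CPM in control and 305 ± 20.3 CPM in labelled KO libraries. Its log2 fold change of 0.33 (adjusted p 0.00170 in edgeR) was under the 1.3-fold threshold, which it passed without control replicate 1 (0.42).

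None of the 5 tested basement membrane and hyaluronan synthase genes was called by edgeR or DESeq2, and 0 of them had an unadjusted edgeR p under 0.05. Over all genes tested, edgeR called 16.0%, and 5 genes are too few to set a count of 0 apart from that share. NID1, which links laminin and collagen networks, had the highest level per length of the 3 basement membrane genes and was at 80.0, 66.04 and 74.2 CPM in control and 72.1, 67.6 and 61.4 CPM in labelled KO libraries (log2 fold change -0.13, 95% interval -0.30 to 0.035). HSPG2, the gene of perlecan, was at 26.3 ± 1.13 and 26.0 ± 3.77 CPM (-0.014, -0.21 to 0.18). NID2 was at 0.891 to 1.06 CPM in control, and in labelled KO libraries at 2.17, 1.19 and 1.02 CPM, so that KO replicate 1 stood apart. The exons of NID2, HAS3 and LOXL3 overlap those of more abundant genes on the other strand (RTRAF, CHTF8 and HTRA2). HAS2 and HAS3, which synthesize hyaluronan, had log2 fold changes of 0.045 (95% interval -0.27 to 0.36) and -0.28 (-0.66 to 0.097). The intervals of NID1, HSPG2 and HAS2 lie within 1.3-fold in either direction, and those of NID2 and HAS3 do not. VTN, the gene of the serum protein vitronectin, had 12 counts over the control and 13 over the labelled KO libraries. TNXB had 32 and 15, and these may include reads of a near-identical pseudogene. The exons of TNXB also overlap those of ATF6B on the same strand, which had 18011 counts over all libraries. CYP1B1, the cytochrome P450, rose from 1.55 ± 0.304 to 2.69 ± 0.245 CPM (0.78, SE 0.19, adjusted p 0.00251 in edgeR), and RMDN2, which overlaps its exons on the other strand, was not called (0.37).

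Genes around these members were then described with 2 further lists, which were also chosen with earlier results of these data known. Of 67 other matrix glycoproteins and proteoglycans, 40 were tested, of which 6 were higher and 6 lower (30.0%, beside 16.0% of all genes tested), with a median log2 fold change of 0.045. CTGF, a matricellular CCN protein gene, rose from 63.8 ± 1.81 to 132 ± 5.92 CPM (log2 fold change 1.04, adjusted p 2.32e-12 in edgeR), and its relative CYR61 from 458 ± 13.5 to 776 ± 48.8 CPM (0.76, adjusted p 1.26e-09). LTBP2, which encodes a microfibril-associated protein, rose from 6.02 ± 0.422 to 15.8 ± 1.08 CPM (1.39, adjusted p 3.25e-11). TGFBI, a TGF-beta induced adhesion protein gene, rose from 162 ± 17.4 to 293 ± 14.1 CPM (0.86, adjusted p 4.76e-10). EDIL3, which encodes an integrin ligand, fell from 18.97 ± 2.56 to 8.37 ± 0.806 CPM (-1.19, adjusted p 1.65e-09). The sixth by p was EPYC, described above.

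The second list held 46 genes that build or trim glycosaminoglycan chains, of which 39 were tested, with 8 higher and 3 lower (28.2%, beside 16.0%) and a median log2 fold change of 0.094. SULF1, the gene of an extracellular sulfatase that removes 6-O-sulfate from heparan sulfate, fell from 129 ± 10.6 to 42.2 ± 4.74 CPM (mean ± SD of 3 libraries), which gave a log2 fold change of -1.61 with an SE of 0.085 (edgeR adjusted p 5.38e-15). Its relative SULF2, at a far lower level, was called higher, from 0.825 ± 0.173 to 1.735 ± 0.522 CPM (log2 fold change 1.03, adjusted p 0.00291 in edgeR). DSE, the epimerase that turns chondroitin into dermatan sulfate, rose from 71.7 ± 1.25 to 115 ± 4.58 CPM (0.69, adjusted p 9.57e-09). CHST7, a chondroitin sulfotransferase gene, rose from 5.37 ± 0.490 to 10.9 ± 0.845 CPM (1.03, adjusted p 5.99e-08), and SLC35D1, which carries nucleotide sugars into the Golgi and endoplasmic reticulum, from 33.8 ± 0.992 to 49.3 ± 1.84 CPM (0.54, adjusted p 3.13e-06). NDST1 and HS2ST1, sulfotransferases of heparan sulfate, had log2 fold changes of 0.42 and 0.40 (adjusted p 9.64e-05 and 0.000280).

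**Figure D4:**
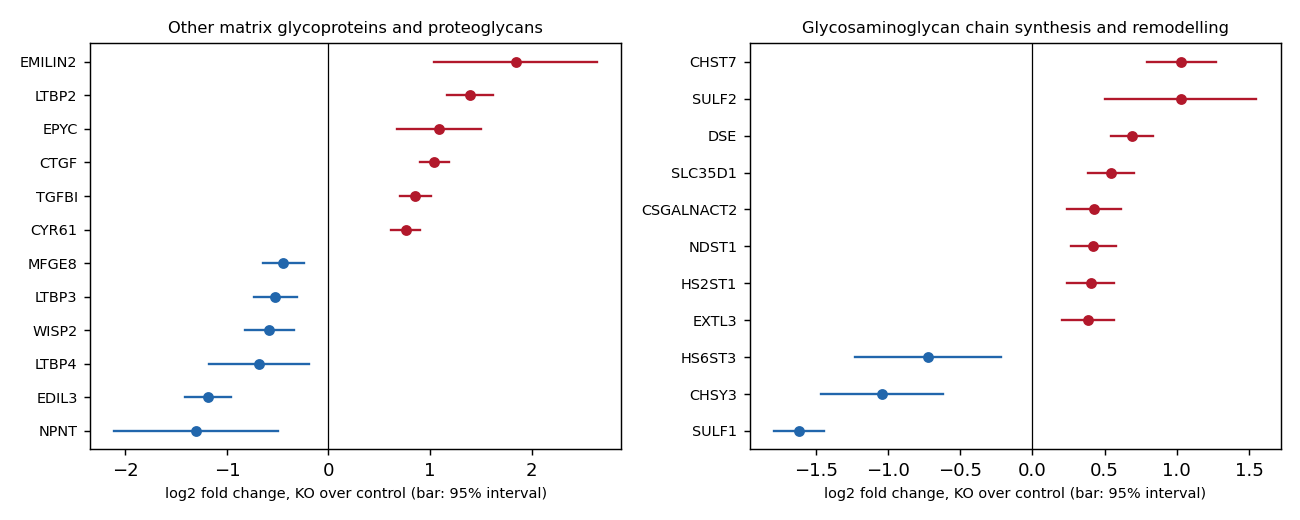
Log2 fold change (labelled KO over control, n = 3 each, bars 95% intervals) of the called genes in the list of other matrix glycoproteins and proteoglycans (left, 6 higher and 6 lower) and in the list of glycosaminoglycan chain genes (right, 8 higher and 3 lower). SULF1 is the lowest on the right, at -1.61.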

How the data were processed

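RNA-seq libraries of J82 cells (3 control, 3 FOXC1 KO) were grouped by sample title. The authors deposited raw read counts per gene, which they made with STAR (alignment of read pairs to hg19) and by counting over GENCODE version 19 genes in featureCounts. Versions and the settings for strand and for multiply mapped reads were not given in the sources used here, so overlapping genes may share reads. Of the 53 members, 24 share exon positions with another gene. Symbols, positions and exon lengths came from GENCODE version 44 lifted to GRCh37, the same assembly, and 96.05% of 57820 gene identifiers matched. CCN symbols were matched through older names. NOV and PECAM1 did not match and were not analysed here. CPM per kb of exon used the union of all annotated exons of version 44, while reads were counted over version 19. Shares within a family and ranks per length depend on these lengths, such as 12941 bases for DCN and 2671 for LUM.

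Counts were filtered with filterByExpr (minimum count 10, 15647 genes kept), scaled with TMM and tested with the robust quasi-likelihood test of edgeR 4.0.16 (R 4.3.3). The threshold was an adjusted p under 0.05 with a fold change over 1.3, as in the study's methods, which used DESeq2 (here version 1.42.0, an alternative). Exact permutation tests were two-sided. The procedure was tested on simulated counts. Members called with a log2 fold change of at least 1 in size and a mean of at least 1 CPM are given in each library, the other members by means or ranges, and the 6 called genes with the smallest p are named from each further list. DCN, LUM, SDC1, GPC1, GPC4 and NID1 were added to those given per library after their values were seen. SULF2 was likewise added to the genes named from the further lists. The members and lists were chosen with earlier results of these data known. Library totals were 18408134 to 25350908 counts. The alternatives were DESeq2, other scaling, other filters, other fold thresholds, thinning, a replicate block and leaving out each library.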

Additional observations from a re-analysis of the deposited data

How the results depend on the processing

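Of 499 values of single members over the alternatives, 467 kept their direction and their side of the thresholds, 14 lost and 5 gained the call, and 13 changed sign. Of the 21 called members 18 kept their call wherever they were tested, and the exceptions were THBS3, FBN1 and GPC1. Sign changes were those of FBN2 (-0.00076 with a mean of at least 50 counts), HAS2 (-0.013 after thinning) and of 6 members in fits that left out 1 library. Over these fits FBN2 ranged from -0.10 to 0.11, HAS2 from -0.12 to 0.17, HSPG2 from -0.11 to 0.093, LUM from -0.16 to 0.061, THBS2 from -0.0077 to 0.19 and EMILIN1 from -0.047 to 0.84. The cause was not tested. Members called higher ranged from 13 to 16 and members called lower from 6 to 7 over the same fits, and the median of the members from 0.17 to 0.34 (lowest without KO replicate 1). That median was 0.14 with a mean of at least 50 counts, which leaves out low genes, and 0.24 after thinning. Over all genes, 1201 to 1408 were lower and 1124 to 1231 higher when 1 library was left out. With no fold change threshold 2233 genes were lower and 2372 higher. With more than 2-fold these were 321 and 316, among them 2 lower and 4 higher members. Replicate numbers gave no pairing: same-numbered libraries had correlations of -0.027, -0.072 and 0.050 between their deviations from their groups. With the number as a block, 14 members were higher and 6 lower, since THBS3 fell short of 1.3-fold (-0.38), and 1351 genes were lower and 1200 higher. DESeq2 called 15 members higher, LOXL1 included, and 6 lower. Low counts limit the 14 members that did not pass the filter.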
